A study of Mus musculus with 99 samples.

Results

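The genes described here are Slc26a5, which encodes prestin, and 7 genes of the spectrin and ankyrin families (Sptan1, Sptbn1, Sptbn4, Sptb, Ank1, Ank2 and Ank3). They were chosen by name as the motor protein of the outer hair cell and candidate parts of its cortical lattice, and all 8 were among the 55291 gene symbols of the count table. Their reads were counted in 99 single hair cells picked by hand from cochleae of C57BL/6 mice. The first group was 32 wild-type outer hair cells (OHCs) of postnatal day 30 from Slc26a5-CreER/+; Ai9/+ mice. The second was 67 cells of postnatal day 42 from Slc26a5-CreER/+; Rosa26Tbx2/+ mice, which the labels call converted inner hair cells (cIHCs): former OHCs in which Cre had switched on ectopic Tbx2. Per the series' design text all picked cells were red with tdTomato, although the label of the cIHCs names no Ai9 allele. Both groups carried the Slc26a5-CreER allele, so the gene that drives the Cre is also the first gene described, and cells of both groups were picked through its past activity. The groups differed both in age and in genotype, and effects of the former and the latter cannot be told apart. They also differed in reads that mark sex: 24 of the 32 OHCs had Y-linked reads and 55 of the 67 cIHCs had Xist reads. The labels name no animal, so the cells of a group were summed to 1 sample, no test was possible, and a statement that a gene was higher or lower concerns these cells only.

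OHCs change length with membrane voltage and so amplify sound, a property they owe to prestin, a membrane protein of the SLC26 anion transporter family packed densely into their lateral wall. Under that membrane lies a cortical lattice in which actin filaments are cross-linked by spectrin, a long flexible molecule built from alpha and beta chains. Ankyrins are adaptors that tie beta spectrin to membrane proteins. Inner hair cells (IHCs), which pass the signal to the auditory nerve, do not move in this way and hold little or no prestin.

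Single OHCs held 5656512 to 9287413 counts and single cIHCs 4677682 to 13792672, and the sums were 242054710 and 544012348 counts. A median of 6068.5 genes had reads in an OHC and 8546 in a cIHC. This difference limits comparisons of the share of cells with reads of a gene. Tbx2 had 3 counts in all OHCs together and at least 112.7 CPM (counts scaled to the library total) in each of the 67 cIHCs. All 8 genes of a list of OHC markers without Slc26a5 were at least 2-fold lower in cIHCs, and all 10 of a list of IHC markers were at least 2-fold higher. The marker lists were chosen with earlier results of these data known, so these counts are no independent check of the labels. Of 7 genes common to both kinds of hair cell, 4 were at least 2-fold lower (median log2 ratio -1.01). Supporting cell, glia, red blood cell and macrophage markers together summed to 0 to 929.3 CPM in single OHCs (median 1.21 CPM) and to 0 to 709.1 CPM in single cIHCs (median 37.8 CPM). In pooled CPM, 26.3% of the 10041 genes that reached 10 CPM in either group were at least 2-fold higher in cIHCs and 14.3% at least 2-fold lower. Intervals given below are at 95%, and none covers differences between animals. Those of shares of cells treat cells as independent draws, although the cells of a group are 1 sample here. Those of levels, ratios and pooled shares of reads concern counting error only and treat reads as independent. Reads copied by amplification and not tagged by molecule are not, so these intervals are too narrow even for counting error.

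Of the 8 genes, 5 reached 10 CPM in a group: Slc26a5, Sptb, Sptbn1, Sptan1 and Ank3. Slc26a5 and Sptb were at least 2-fold lower in cIHCs, Ank3 was at least 2-fold higher, and Sptbn1 and Sptan1 lay inside the 2-fold limits. Ank1, Ank2 and Sptbn4 stayed under 10 CPM in both groups. The 4 spectrin and ankyrin genes that reached 10 CPM had a median log2 ratio, cIHC over OHC, of 0.33, beside 0.25 for the 10041 genes under the same minimum. Over all 7 spectrin and ankyrin genes, with the cIHC sum of Sptbn4 set from 0 to 3 counts, the median was 0.46. Other scalings moved the median of all genes by up to -0.20, and taking only cells with Xist reads moved it by 0.39. Ratios relative to the all-gene median are therefore given as well.

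**Figure D1:**
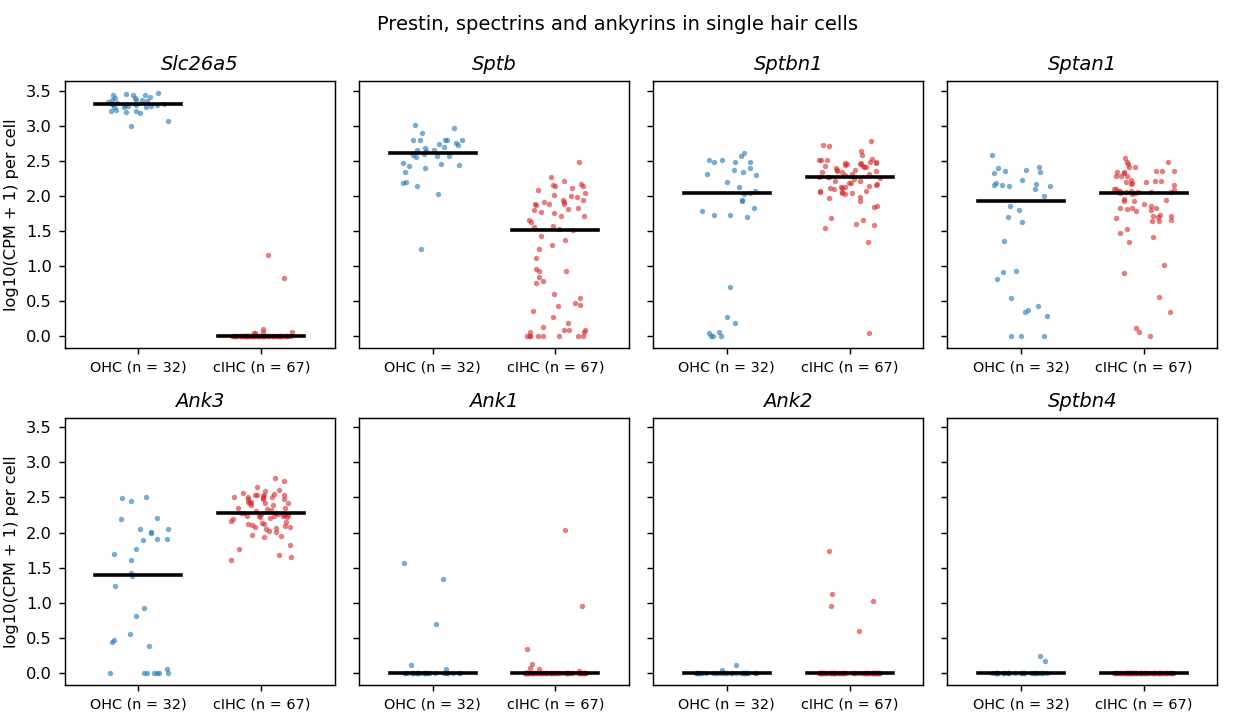
Level of each of the 8 genes in every cell, as log10(CPM + 1), for 32 OHCs (blue) and 67 cIHCs (red); black bars are medians. Slc26a5 separates the groups completely, Sptb is lower and Ank3 higher in cIHCs with overlap, and Ank1, Ank2 and Sptbn4 are at or near 0 in most cells.

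Slc26a5 lies at chr5:21810655-21865604 on the minus strand (GRCm38, GENCODE M21). In the 32 OHCs its level ran from 994.4 CPM over a median of 2026 CPM to 2913 CPM, a 2.93-fold span, and it ranked 32nd of 19871 genes with reads by pooled CPM. In the 67 cIHCs the median was 0 and the highest value 13.3 CPM. The lowest OHC thus stood 74.6-fold above the highest cIHC. Every cIHC was below every OHC for 9 of the 10041 genes (0.0896%), of which Slc26a5 was 1, and above every OHC for 8 genes (0.0797%), of which none was a member. Pooled levels were 2080 CPM (2074 to 2086) and 0.303 CPM (0.259 to 0.353), a log2 ratio of -12.74 (-12.97 to -12.52), which is -12.99 after subtracting the all-gene median.

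Slc26a5 varied little from OHC to OHC. Its coefficient of variation over the 32 cells was 0.224, against a median of 0.376 for the 60 genes whose mean level lay within 2-fold of it, and 1 of those 60 varied less. Sptb, at a lower level, had a coefficient of variation of 0.536, Sptbn1 0.907, Sptan1 0.986 and Ank3 1.39.

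The Slc26a5 reads of cIHCs came from few cells. Of 67 cIHCs, 7 had any read, or 10.4% (exact Clopper-Pearson interval 4.30 to 20.3). In 4 of them this was 1 read, and in 1 it was 2 reads. The remaining pair, cIHC 33 with 101 counts (13.3 CPM) and cIHC 67 with 58 counts (5.82 CPM), held 96.4% of the 165 counts. These cells, singled out after their values were seen, had similar sums over the 8 OHC markers, 892.1 and 782.5 CPM, beside a median of 886.9 CPM over all cIHCs. In single genes, cIHC 33 had no read of Ocm and 74.6 CPM of Sptb, whereas cIHC 67 had 93.1 CPM of Ocm and no read of Sptb. Tbx2 stood at 684.6 CPM in cIHC 33 and 805.0 CPM in cIHC 67, and both had over 1000 CPM of Slc17a8, the vesicular glutamate transporter of IHCs (1243 and 1027 CPM). Their reads of supporting cell, glia, red blood cell and macrophage markers summed to 176.8 and 193.5 CPM, of which the complement gene C1qb made up 102.9 and 165.0 CPM. Without the 20 cIHCs and 7 OHCs in which these markers reached 100 CPM, 6 Slc26a5 counts were left in 47 cIHCs and the log2 ratio was -16.97 (-18.41 to -15.85). The part of these other reads in the level of Slc26a5 was not tested. The 8 macrophage markers summed to 0 to 41.7 CPM in single OHCs and 0 to 336.9 CPM in single cIHCs. In cIHCs C1qb had reads in 35 cells, Fcer1g in 4 (616 counts, up to 28.5 CPM, in cIHC 67) and Cd74 in 1 (330 counts), while C1qa, C1qc, Tyrobp, Ctss and Lyz2 had none.

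The promoters of Slc26a5 and Sptb, the members at least 2-fold lower in cIHCs, are shown beside that of Sptan1, whose pooled level was nearly equal in both groups. RefSeq promoter windows (GRCm38.p6) matched 6 of the 8 genes, all but Ank1 and Ank3. The 250 bases before the annotated start are printed 5′ to 3′ on the strand of the gene for Slc26a5 (chr5:21865605-21865854, minus strand), Sptb (chr12:76710548-76710797, minus strand) and Sptan1 (chr2:29965310-29965559, plus strand). Capitals mark GC boxes, GGGCGG or its reverse complement CCGCCC.
Slc26a5: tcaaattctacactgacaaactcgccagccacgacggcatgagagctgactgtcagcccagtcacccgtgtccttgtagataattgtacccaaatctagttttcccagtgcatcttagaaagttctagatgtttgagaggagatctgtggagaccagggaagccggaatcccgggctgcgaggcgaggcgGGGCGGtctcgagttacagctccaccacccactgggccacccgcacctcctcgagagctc
Sptb: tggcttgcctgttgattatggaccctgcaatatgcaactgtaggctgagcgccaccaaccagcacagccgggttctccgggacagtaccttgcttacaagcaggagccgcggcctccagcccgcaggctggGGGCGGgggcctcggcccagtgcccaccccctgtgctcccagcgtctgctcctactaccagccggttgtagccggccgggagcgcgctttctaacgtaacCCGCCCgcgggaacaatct
Sptan1: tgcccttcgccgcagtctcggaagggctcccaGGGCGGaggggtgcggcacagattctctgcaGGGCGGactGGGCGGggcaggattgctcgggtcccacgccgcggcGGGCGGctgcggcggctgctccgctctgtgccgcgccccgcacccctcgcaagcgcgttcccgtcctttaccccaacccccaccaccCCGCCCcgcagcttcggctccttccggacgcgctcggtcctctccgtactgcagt
The GC content was 56% for Slc26a5, 65.2% for Sptb and 73.6% for Sptan1. The window of Slc26a5 held 1 GC box, that of Sptb 2 and that of Sptan1 5, and 32.7% of all 32851 windows held 1 or more. The core of the T-box site, GGTGTGA or TCACACC, which factors such as Tbx2 recognise, was in 3.33% of all windows. Among the genes described here it was found in 1 window of Ank2 and in no window of Slc26a5, Sptb, Sptan1, Sptbn1 or Sptbn4. These matches describe letters in a short window and are no evidence of binding or of its absence.

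Among the beta spectrins, Sptb was lower in cIHCs and Sptbn1 lay inside the 2-fold limits. Sptb (chr12:76580488-76710547, minus strand) encodes beta-I spectrin, best known from the skeleton of red blood cells. It had reads in all 32 OHCs, from 16.3 CPM over a median of 412.2 CPM to 1018 CPM, and in 59 of 67 cIHCs, where the median was 31.8 CPM and the highest value 300.2 CPM. No cIHC reached the OHC median, 30 of 67 cIHCs lay below the lowest OHC, and 21 of 32 OHCs lay above the highest cIHC, so the groups overlapped in part. When each cIHC was paired with each OHC, the cIHC was higher in 3.03% of the 2144 pairs. Pooled levels of 440.1 CPM (OHC) and 46.5 CPM (cIHC) gave a log2 ratio of -3.24 (-3.26 to -3.22), or -3.49 relative to all genes. This is 9.46-fold lower. Unlike Slc26a5, Sptb was still at 10 CPM or more in 58.2% of cIHCs (45.5 to 70.2).

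Reads of red blood cell genes were few in both groups. The 6 red blood cell markers summed to 4.50 CPM in pooled OHCs (0 to 67.0 CPM per cell) and 5.73 CPM in pooled cIHCs (0 to 123.8 CPM per cell). Alas2, the erythroid enzyme of heme synthesis, was at 0 in OHCs and at 0.482 CPM in cIHCs. Without the cells in which supporting cell, glia, red blood cell and macrophage markers together reached 100 CPM, the log2 ratio of Sptb was -3.23. That set was not chosen by red blood cell markers alone. The part of red blood cell reads in the level of Sptb was not tested. In GENCODE M21 the exons of Sptb share 1 base with Plekhg3 on the other strand.

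Sptbn1 (chr11:30099395-30268175, minus strand) encodes beta-II spectrin, the common beta chain of non-erythroid cells. Its level in OHCs ran from 0 over a median of 106.9 CPM to 409.2 CPM, with reads in 29 of 32 cells. In cIHCs it ran from 0.109 over a median of 182.1 CPM to 612.2 CPM, with reads in all 67 cells. The ranges overlapped almost fully, and a cIHC was higher in 63.9% of pairs. The log2 ratio of 0.46 (0.44 to 0.47), from 140.6 to 192.9 CPM, came to 0.21 relative to all genes.

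Set against each other within a cell, the mix of both beta chains differed between the groups, in a measure that does not depend on how libraries are scaled. Counts were divided by the length of the union of annotated exons (12.147 kb for Sptb, 17.492 kb for Sptbn1). Sptb made up 81.8% (81.7 to 82.0) of the summed length-scaled reads of both genes in OHCs and 25.8% (25.50 to 26.03) in cIHCs, a difference of -56.1 percentage points. Per cell, the median share was 87.6% in OHCs (9.27 to 100%) and 15.2% in cIHCs (0 to 99.9%). Sptb made up more than 50% in 28 of 32 OHCs, or 87.5% (71.0 to 96.5), and in 11 of 67 cIHCs, or 16.4% (8.49 to 27.5). The groups overlapped, since 4 OHCs were at or under 50%. Dividing by the longest annotated transcript instead gave 73.3% and 17.4%.

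**Figure D2:**
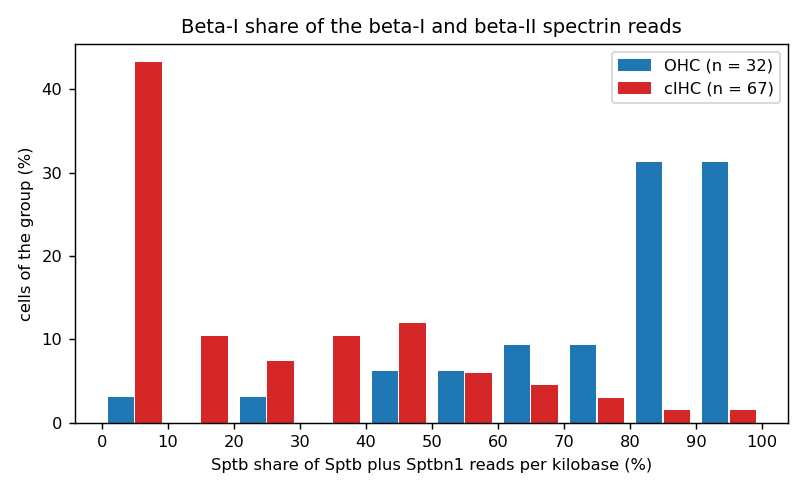
Share of Sptb in the length-scaled reads of Sptb plus Sptbn1 per cell, in bins of 10 percentage points, as percent of the cells of each group (bars start at 0; OHC blue, n = 32; cIHC red, n = 67). Most OHCs lie above 50% (28 of 32) and most cIHCs below it (11 of 67 above).

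Sptbn4 and Sptbn5 were near the limit of detection. Sptbn4 (chr7:27356383-27447686, minus strand), the beta-IV spectrin of axon initial segments and nodes, had 7 counts from 2 of 32 OHCs and none in 67 cIHCs. The limit used for a count of 0, 3 of 67 or 4.48%, is for further such cells and treats cells as independent draws. This limit concerns cells with reads, not cells that express the gene. With the cIHC sum set to the floor of 3 counts its log2 ratio was -2.39, and the upper end of the interval was -1.70. Of its OHC counts, 57.1% came from 1 cell. Sptbn5, the long beta-V chain, had 1 count in OHCs and none in cIHCs.

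Sptan1 (chr2:29965560-30031451, plus strand) encodes alpha-II spectrin, the partner of the non-erythroid beta chains. In OHCs it ran from 0 over a median of 84.3 CPM to 378.1 CPM, and in cIHCs from 0 over a median of 107.9 CPM to 346.4 CPM. Reads were present in 29 of 32 OHCs and 66 of 67 cIHCs, and a cIHC was higher in 56.2% of pairs. The log2 ratio of 0.19 (0.17 to 0.21), from 104.2 to 119.1 CPM, was -0.06 relative to all genes, and its sign depended on the scaling and on the cells used.

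Among the ankyrins, Ank3 differed most clearly. Ank3 (chr10:69398773-70027438, plus strand) encodes ankyrin-G, known for anchoring channels and adhesion molecules at axon initial segments and along lateral membranes of epithelia. It had reads in 25 of 32 OHCs, with a median of 24.1 CPM and a highest value of 323.6 CPM, and in all 67 cIHCs, from 39.5 CPM over a median of 187.6 CPM to 600.4 CPM. Every cIHC was above the OHC median, 17 of 32 OHCs lay below the lowest cIHC, and 13 of 67 cIHCs lay above the highest OHC. A cIHC was higher in 87.9% of pairs. Pooled levels were 62.9 CPM and 216.5 CPM, a log2 ratio of 1.78 (1.76 to 1.81), 3.44-fold higher, or 1.53 relative to all genes. The highest OHC contributed 19.2% of the OHC counts, and leaving out the highest cell on each side gave 2.00.

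Neuronal markers differed in the same direction as Ank3. The 6 neuron markers summed to 0 to 386.0 CPM in single OHCs (median 10.4 CPM) and to 53.8 to 814.7 CPM in single cIHCs (median 343.5 CPM), and 4 of them reached 10 CPM and were at least 2-fold higher in cIHCs. Nefm, a neurofilament, had 19.2 and 176.1 CPM, and Rbfox3, a neuronal splicing factor, 1 count in OHCs and 48.2 CPM in cIHCs. Prph, a filament of peripheral neurons, was at 0 in both groups, and Nefh was at 0 in OHCs and at 0.320 CPM in cIHCs. The part of neuronal RNA in the level of Ank3 was not tested.

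**Figure D3:**
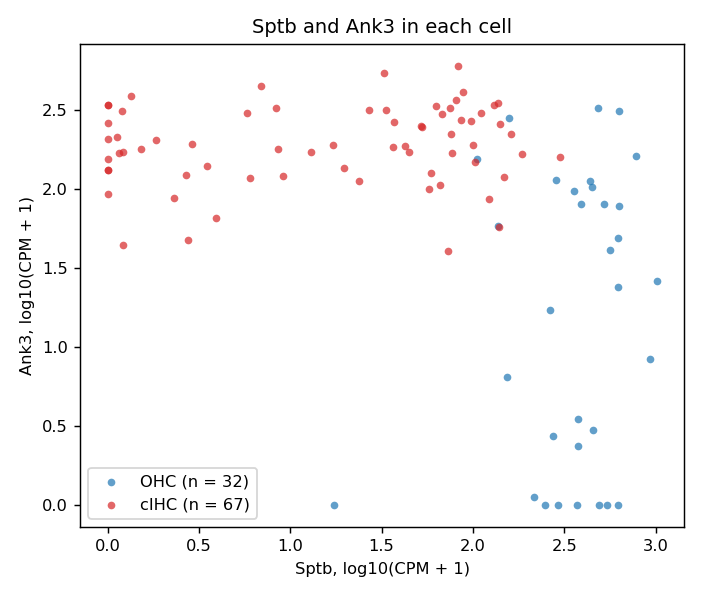
Level of Sptb against Ank3 in each cell, both as log10(CPM + 1) (OHC blue, n = 32; cIHC red, n = 67). The cIHCs spread over the whole lower range of Sptb while all hold at least 39.5 CPM of Ank3, and most OHCs sit at high Sptb, 1 of them at 16.3 CPM, with Ank3 anywhere from 0 to 323.6 CPM.

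Ank1 and Ank2 had reads in few cells. Ank1 (chr8:22974844-23150497, plus strand), the ankyrin of red blood cells, had reads in 5 of 32 OHCs and 7 of 67 cIHCs, with pooled levels of 1.95 and 2.75 CPM. The direction rested on 1 cell: 93.9% of the cIHC counts were those of 1 cell, and the log2 ratio of 0.50 became -2.38 once the top cell on each side was left out. Its exons overlap Gm15816 on the other strand over 862 bases, and whether reads were counted by strand is not given in the sources used here. Ank2 (chr3:126921612-127499350, minus strand), the ankyrin-B of heart and brain, had 3 counts in 2 OHCs and 762 counts in 5 of 67 cIHCs, of which 1 cell held 62.99%. Its log2 ratio of 6.82 had an interval from 5.27 to 9.10.

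Divided by exon length, the pooled levels in OHCs ran in the order Slc26a5 (677.0 CPM per kb), Sptb (36.2), Sptbn1 (8.04), Sptan1 (7.79), Ank3 (1.81), Ank1 (0.144), Sptbn4 (0.0030) and Ank2 (0.00035). Sptbn1 and Sptan1 were neighbours whose interquartile ranges over cells overlapped (2.13 to 13.4 and 0.354 to 11.7 CPM per kb). In cIHCs the order was Sptbn1 (11.03 CPM per kb), Sptan1 (8.91), Ank3 (6.21), Sptb (3.83), Ank1 (0.203), Slc26a5 (0.0987) and Ank2 (0.0400), with Sptbn4 at 0. Prestin thus moved from the first to the sixth place and Sptb from the second to the fourth. Ank3 has many annotated transcripts, and with the longest one as its length it came first in cIHCs, at 21.7 CPM per kb against 21.2 for Sptbn1.

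The groups also differed in the share of cells with Xist or Y-linked reads, which mark female and male cells. The ratios were therefore taken within each kind of cell. At 10 CPM or more, 24 OHCs and 12 cIHCs had Y-linked reads and 4 OHCs and 55 cIHCs had Xist reads. Among cells with Y-linked reads the log2 ratio was -3.27 for Sptb, 1.93 for Ank3, 0.23 for Sptbn1 and -0.39 for Sptan1. Among cells with Xist reads it was -2.62, 1.31, 0.58 and 1.85 in the same order, with 4 OHCs behind each value. For Slc26a5 the 12 cIHCs with Y-linked reads held 1 count, a log2 ratio of -17.37 (-22.67 to -14.89), and cells with Xist reads gave -12.67. The median of all genes was 0.15 among cells with Y-linked reads and 0.64 among cells with Xist reads. Before it is subtracted, Sptan1 is the only one of these 5 genes whose direction differed between the kinds of cell. Sptbn1 lay above that median among cells with Y-linked reads (0.23) and below it among cells with Xist reads (0.58).

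Correlations between members from cell to cell were weak. Among the 5 genes with reads in at least 50% of the OHCs, Spearman's rho of log2(CPM + 1) over 32 OHCs lay between -0.25 (Slc26a5 with Sptan1) and 0.28 (Slc26a5 with Sptbn1, Pearson's r 0.42). Over 67 cIHCs, the 4 spectrin and ankyrin genes gave values from -0.21 (Sptan1 with Sptb) to 0.11 (Sptb with Ank3). Which cells share a mouse or a preparation is not given in the sources used here, and values of this size are no finding. In cIHCs Sptb also had a rho of -0.31 with total counts and -0.34 with the number of genes with reads.

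The genes whose levels were most like those of Slc26a5 over the 32 OHCs were Ywhab (rho 0.57), Sdf4 (0.53), Vps35 (0.52), Srebf2 (0.50) and Spag7 (0.49), out of 2346 genes that averaged 50 CPM or more and had reads in 75% or more of OHCs. The 95th percentile of rho over these genes was 0.29. For Sptan1 they were Hnrnpk, Csnk2b, Sec23b, Atp5pb and Uqcrb in OHCs (0.59 to 0.53) and Spg20, Coa3, Ppp2r5b, Zfp277 and Klhl5 over the 67 cIHCs (0.45 to 0.39). For Sptbn1 they were Arhgap26, Xpo1, Tecr, Kcp and 1600022D10Rik in OHCs (0.55 to 0.54) and Tnrc6a, Dscaml1, B230219D22Rik, Cox7b and Mpp5 in cIHCs (0.42 to 0.40). With Pearson's r in place of rho, 1 of the 5 genes recurred for Slc26a5, for Sptan1 in OHCs and for Sptbn1 in each group. For Sptan1 in cIHCs 0 of 5 recurred. These are the highest values picked from many genes over few cells, and like the correlations between members they are no finding.

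Of 20 further genes of the spectrin and actin lattice, 13 reached 10 CPM, of which 7 (53.8%) were at least 2-fold higher in cIHCs and 2 (15.4%) at least 2-fold lower, beside 26.3% and 14.3% of all genes. Their median log2 ratio was 1.33, against 0.25 over all genes. This list and those of ankyrin partners and calpains below were chosen with earlier results of these data known. Their shares are a description only. Epb41, which joins spectrin to actin, stood at 12.0 CPM (OHC) and 67.4 CPM (cIHC), for a log2 ratio of 2.49, and its relatives Epb41l3 and Epb41l5 had ratios of 1.76 and 1.64. Epb41l3 had reads in 6 of 32 OHCs, with 52.6% of the counts in 1 cell, and its ratio was 2.64 without the highest cells. The tropomyosin Tpm4 and the cortical adaptor Kank4 had the highest ratios, 3.14 and 2.92. Both barely reached 10 CPM, and only in cIHCs, with 1.17 and 1.36 CPM in OHCs. For Tpm4, 1 OHC held 91.9% of the OHC counts. The cytoplasmic actins, named after their values were seen, were both higher: Actb at 131.0 and 357.5 CPM and Actg1 at 370.9 and 931.3 CPM, log2 ratios of 1.45 and 1.33. The lowest ratios were those of the adducin Add3, at -1.51, and of Camsap3, a binder of microtubule minus ends, at -1.31. For Add3, 46.1% of the OHC counts came from 1 cell, and its ratio was -0.97 without the highest cells.

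**Figure D4:**
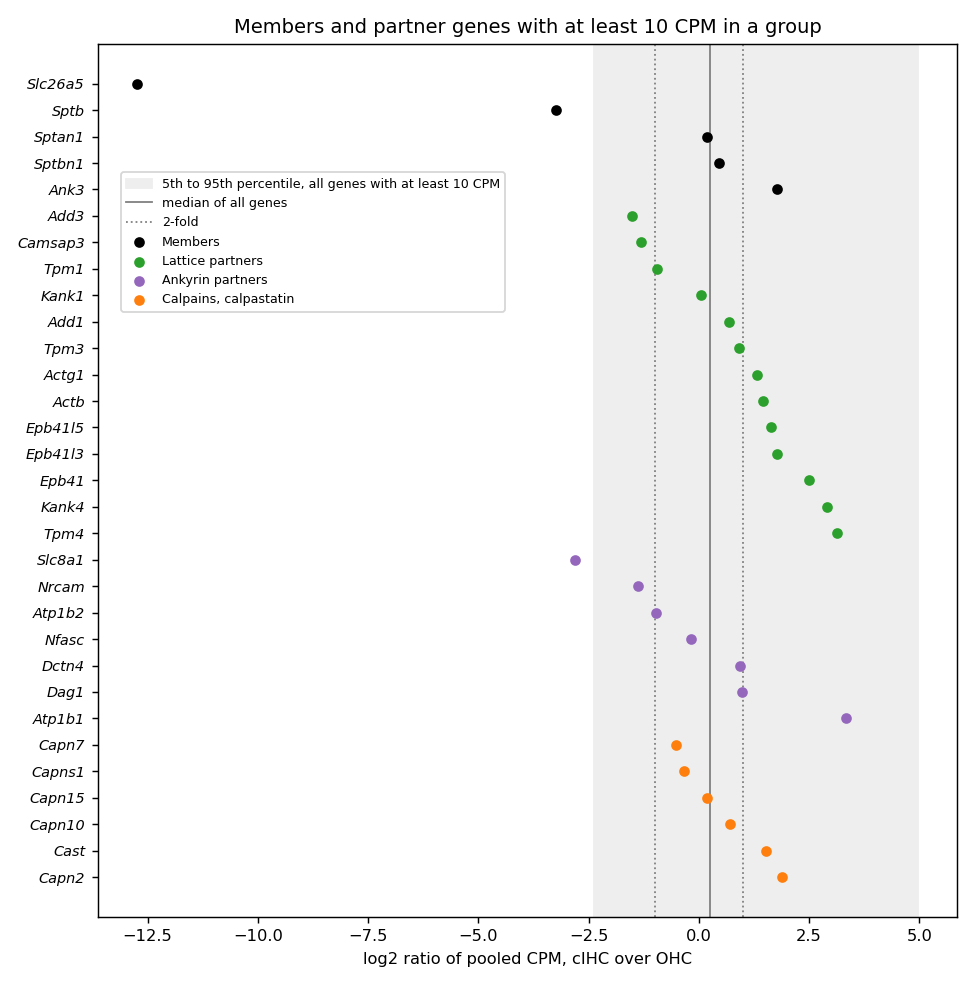
Log2 ratio of pooled CPM, cIHC over OHC, for the members and partner genes with at least 10 CPM in a group (1 ankyrin partner is not drawn); dotted lines mark 2-fold, the grey line the median of all genes (0.25) and the shaded band their 5th to 95th percentile (-2.37 to 4.98). Slc26a5, Sptb and Slc8a1 lie below the band, and 7 of 13 lattice partners lie above the upper 2-fold line.

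Of 17 membrane partners of ankyrins, 8 reached 10 CPM, with 2 (25%) at least 2-fold higher and 2 (25%) at least 2-fold lower, beside 26.3% and 14.3% of all genes. The highest ratio was that of Atp1b1, a beta subunit of the sodium pump, at 81.1 CPM (OHC) and 815.3 CPM (cIHC), a log2 ratio of 3.33. All 67 cIHCs had at least 56.6 CPM of Atp1b1, against reads in 19 of 32 OHCs. The lower genes were Slc8a1, a sodium-calcium exchanger, from 43.7 to 6.202 CPM (-2.82), and the adhesion molecule Nrcam, from 26.2 to 10.1 CPM (-1.38). Atp1b2, another beta subunit of the pump, lay just inside the limit at -0.97. Without the highest cell of each gene, 4 of the 8 were at least 2-fold higher and 2 lower. The share over all genes in that setting is not given here, and 26.3% and 14.3% are no measure for these counts.

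Calpains are proteases that cut spectrin, and calpastatin inhibits them. Of 8 such genes 6 reached 10 CPM, with 2 (33.3%) at least 2-fold higher in cIHCs and 0 lower, beside the same 26.3% and 14.3%. With the top cell of each gene left out, there were 3 higher and 0 lower, counts for which no share over all genes is given here. Capn2, the catalytic subunit of m-calpain, had 8.31 and 30.8 CPM (log2 ratio 1.89), and Cast, calpastatin, 15.6 and 44.5 CPM (1.51). Single OHCs held 56.8% and 49.1% of their OHC counts, and the ratios were 2.95 and 2.32 without the highest cells. Capn1 had no read in any cell, and Capn7 had the lowest ratio, -0.52.

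No other gene of the SLC26 family came near the OHC level of prestin in either group. Of 10 other family genes, 1 reached 10 CPM: Slc26a4, an anion exchanger of inner ear epithelia, had no read in 32 OHCs. It reached 13.4 CPM in cIHCs, with reads in 16 of 67 cells, of which 1 held 34.7% of the counts. With the OHC sum set to the floor of 3 counts its log2 ratio was 10.08, and the lower end of the interval was 9.78. Slc26a1 had 8.17 CPM in OHCs, 97.4% of it in 1 cell, and Slc26a2 had 6.83 CPM in OHCs, 99.9% of it in 1 cell. Summed over these 10 genes, the family without prestin had 22.4 CPM (OHC) and 25.7 CPM (cIHC).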

How the data were processed

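Counts came from 99 picked cells; OHCs of an earlier study were not analysed here. Groups follow the titles, although the protocol text, alike for all cells, names endogenous IHCs and iOHCs. The authors deposited 1 table of whole-number read counts per gene symbol and cell. Per the submitters' processing notes, HISAT2 2.2.1, StringTie 2.2.1 and featureCounts 2.0.1 were used with the mm10 build; their roles, the annotation and the strand setting are not given in the sources used here. Per the labels' protocols, cDNA was full-length (Smart-Seq HT kit). Columns were matched to cells by title, with 0 columns left over and 0 identical pairs of columns, and no cell was left out.

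Counts were summed per group, since no animal is named, and divided by the group total (pooled CPM). Sums at or under 3 counts in both groups gave no ratio, and a sum of 0 was set to 3. A gene was counted as higher or lower from a 2-fold difference on, among genes with at least 10 CPM in a group. Intervals are exact Poisson, conditional binomial or Clopper-Pearson. For 0 of n cells, 3 of n is given in place of an interval. The members and lists were chosen with earlier results of these data known. Named are all members, up to 5 list genes past 2-fold with the lowest and highest ratio, and the 5 genes most like a member; other names were chosen after their values were seen. Some list genes are counted in their lists but are not reported here by name. Lengths, positions and overlaps come from GENCODE M21 (GRCm38), which holds 96.4% of the symbols.

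Alternatives were other summaries over cells, other scalings and other sets of cells, among them cells thinned to 5770000 reads (29 OHCs and 66 cIHCs). The ratio step was tested on simulated data. Tools were Python 3.11.15, numpy 2.4.6, pandas 2.3.3, scipy 1.17.1, matplotlib 3.10.9 and, for TMM factors, edgeR 4.0.16 in R 4.3.3.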

Additional observations from a re-analysis of the deposited data

How the results depend on the processing

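No paired analysis was possible because cell numbers name single cells and no result comes from a test. Slc26a5 and Sptb were lower and Ank3 higher in cIHCs under each alternative that gave a value; the median over cells gave none for Slc26a5, whose cIHC median is 0. The log2 ratio of Slc26a5, -12.74, became -14.07 with the highest cell on each side left out and -17.37 among cells with Y-linked reads. It was -16.97 without cells in which the foreign markers (supporting cell, glia, red blood cell and macrophage) together reached 100 CPM. That cut took out cIHC 33 and cIHC 67, where C1qb made up 102.9 and 165.0 CPM of 176.8 and 193.5 CPM. Sptb ran from -3.70 to -2.62 and Ank3 from 1.31 to 2.96. Before the all-gene median is subtracted, Sptbn1 stayed above 0, from 0.23 to 0.77. Among cells with Xist reads it was 0.58, below the all-gene median of 0.64. Sptan1 ran from -0.39 to 1.85, with -0.01 under median-of-ratios scaling. Ank1 ran from -4.97 to 0.73 and was below 0 under 5 alternatives. The floored ratio of Sptbn4 became 0.76 among cells with Y-linked reads, where 4 OHC counts face a floor of 3.

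The median of 0.46 over 7 spectrin and ankyrin genes became 0.26 with TMM factors and 0.25 with median-of-ratios factors. It was 0.41 and 0.38 without mitochondrial or the most abundant genes in the totals, and 0.23 among cells with Y-linked reads. The other alternatives gave a ratio for fewer genes, so their medians are not over the same set. Over 6 genes the median was 0.34 with the mean of CPM per cell, 0.39 without the highest cell and 0.28 after thinning. Also over 6 genes, it was 0.94 among cells with Xist reads and 0.58 without the cells in which the foreign markers named above reached 100 CPM. The median of CPM per cell gave 0.56 over 4 genes, whose median was 0.33 in the main setting. Among cells with Xist reads, where the median of all genes was 0.64, 2 spectrin and ankyrin genes were at least 2-fold higher, Sptan1 beside Ank3. The share of all genes past 2-fold among those cells is not given here, so nothing is drawn from this count. The difference of -56.1 percentage points in the share of Sptb, whose alternatives were chosen after seeing the data, became -55.4 with the mean and -64.7 with the median of CPM per cell, -57.4 without the highest cell, -53.7 and -50.3 among cells with Y-linked and Xist reads, and -55.3 after thinning. From a minimum of 1 CPM, 34% of all genes were at least 2-fold higher and 19.7% lower. Levels under 10 CPM rest on few cells.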
